A study of Saccharomyces cerevisiae with 24 samples.

Results

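The 18 sites examined here are the nucleotides of the small-subunit (18S) ribosomal RNA of budding yeast (Saccharomyces cerevisiae) that carry a methyl group on the 2′ oxygen of the ribose. They were taken by position, counted from 1 at the 5′ end of the mature 18S rRNA. The rule itself uses no measured value, but it was chosen with earlier results of these data known. They are 18 of 1800 18S positions and of 5475 rRNA positions in all, and the number in a site's name is its position. By base there were 8 methylated adenosines (Am), 5 guanosines (Gm), 3 cytidines (Cm) and 2 uridines (Um). The base in the files matched the listed base at all of them, and all 360 combinations of site and library had a coverage of at least 20 reads.

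RNA from strain BY4741 was sequenced directly on nanopores in 24 libraries, which form 12 groups of 2. The 3 deletion strains, the snR3 knockout, snR34 knockout and snR36 knockout, carry a kanMX4 cassette in place of a small nucleolar RNA (snoRNA) gene and are set against WT cells of the same strain, as total RNA. Gradient fractions F1 to F4 hold wild-type RNA from the 4 successive fractions of a polysome gradient. In the peroxide experiment, wild-type cells were treated with 1 mM hydrogen peroxide for 30 min or left untreated. RNA was taken as total RNA, which the labels class as ribosomal (treated and untreated input), or as fractions 3 and 4 together (treated and untreated F3-4). Per the labels, cycloheximide was added to the cultures of both the fraction and the peroxide experiment before harvest, and they were grown as biological duplicates. The labels do not say whether the strain replicates came from separate cultures, so the spread between them may be technical. Error features are available for 20 libraries, which leaves 1 library per strain, whereas current levels cover the 8 strain libraries.

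Ribose methylation is the commonest sugar modification of rRNA. Box C/D snoRNAs base-pair with the precursor rRNA and place one nucleotide of the duplex in the active site of the methyltransferase Nop1 (fibrillarin), so each site is specified by a guide RNA. From general knowledge of these RNAs, the guide is snR74 for Am28, snR51 for Am100, U14 for Cm414, snR52 for Am420, snR87 for Am436, snR47 for Am619, snR53 for Am796, snR54 for Am974, snR77 for Um578, snR79 for Cm1007, snR55 for Um1269, snR56 for Gm1428, snR57 for Gm1572 and snR70 for Cm1639. snR41 guides both Am541 and Gm1126, and snR40 guides both Gm562 and Gm1271. Among these positions, Um578 and Cm1639 lie next to the decoding site of the small subunit. The RNAs deleted in the 3 strains belong to the box H/ACA class, which directs pseudouridylation (Ψ), so all groups keep the 18 methylation guides. In direct RNA sequencing the strand itself passes through a pore, and a modified nucleotide can disturb the current and raise the rate of mismatched, inserted or deleted bases near it.

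The reference around the sites on which the results below turn is given as DNA letters, 5′ to 3′, from the position column of the deposited tables, with the methylated base in capitals. Am796, Am28 and Um578 had the highest insertion frequencies, Am420, Um1269, Am541 and Am974 high mismatch, Am100 and Gm1271 high deletion, and Gm562 and Cm1639 error frequencies near those of unmodified positions.
Am796: cgaatatattAgcatggaata
Am28: cagtagtcatAtgcttgtctc
Um578: gcagccgcggTaattccagct
Am420: acatccaaggAaggcagcagg
Um1269: ttgtgggtggTggtgcatggc
Am541: cttaacgaggAacaattggag
Am974: ttaatcaagaAcgaaagttag
Am100: cgaatggctcAttaaatcagt
Gm1271: gtgggtggtgGtgcatggccg
Gm562: ggcaagtctgGtgccagcagc
Cm1639: gtacacaccgCccgtcgctag
Um1269 and Gm1271 are separated by a single G, so the stretches printed for them overlap.

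Depth differed widely between libraries. Median 18S coverage ran from 63 reads in F1 replicate 2 to 17352.5 in snR3 knockout replicate 1. The shallowest libraries were F1 replicate 1 (119), F4 replicate 1 (106) and treated F3-4 replicate 2 (98.5), in addition to F1 replicate 2. Coverage was higher toward the 3′ end in every library, with 1.72 to 29.0 times as many reads at Cm1639 as at Am28. The ratio was highest in treated F3-4 replicate 2. Frequencies are percentages of the reads over a position, and the lowest coverage behind any value at the 18 sites was 28 reads, at Am28 in F1 replicate 2. Quoted intervals follow Wilson's method at 95% and reflect only the error of counting reads.

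Insertions were the error in which most of the 18 sites stood out. To set a scale, each site was ranked in each library among unmodified 18S positions of the same base, which means positions at least 6 nucleotides from any of the 37 listed modified sites of 18S (384 A, 283 C, 372 G and 416 U). By its median over the 20 libraries, a site was counted as past the 95th percentile of that distribution for 13 of 18 sites in insertion, 6 in mismatch and 3 in deletion. For base quality, 6 sites lay at or below the 5th percentile. Of the 18 sites, 8 passed for 2 kinds of error, 6 for 1 kind and 4 for none, and 0 passed for all 3. These ranks are descriptions, since positions of a library are not replicates.

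**Figure D1:**
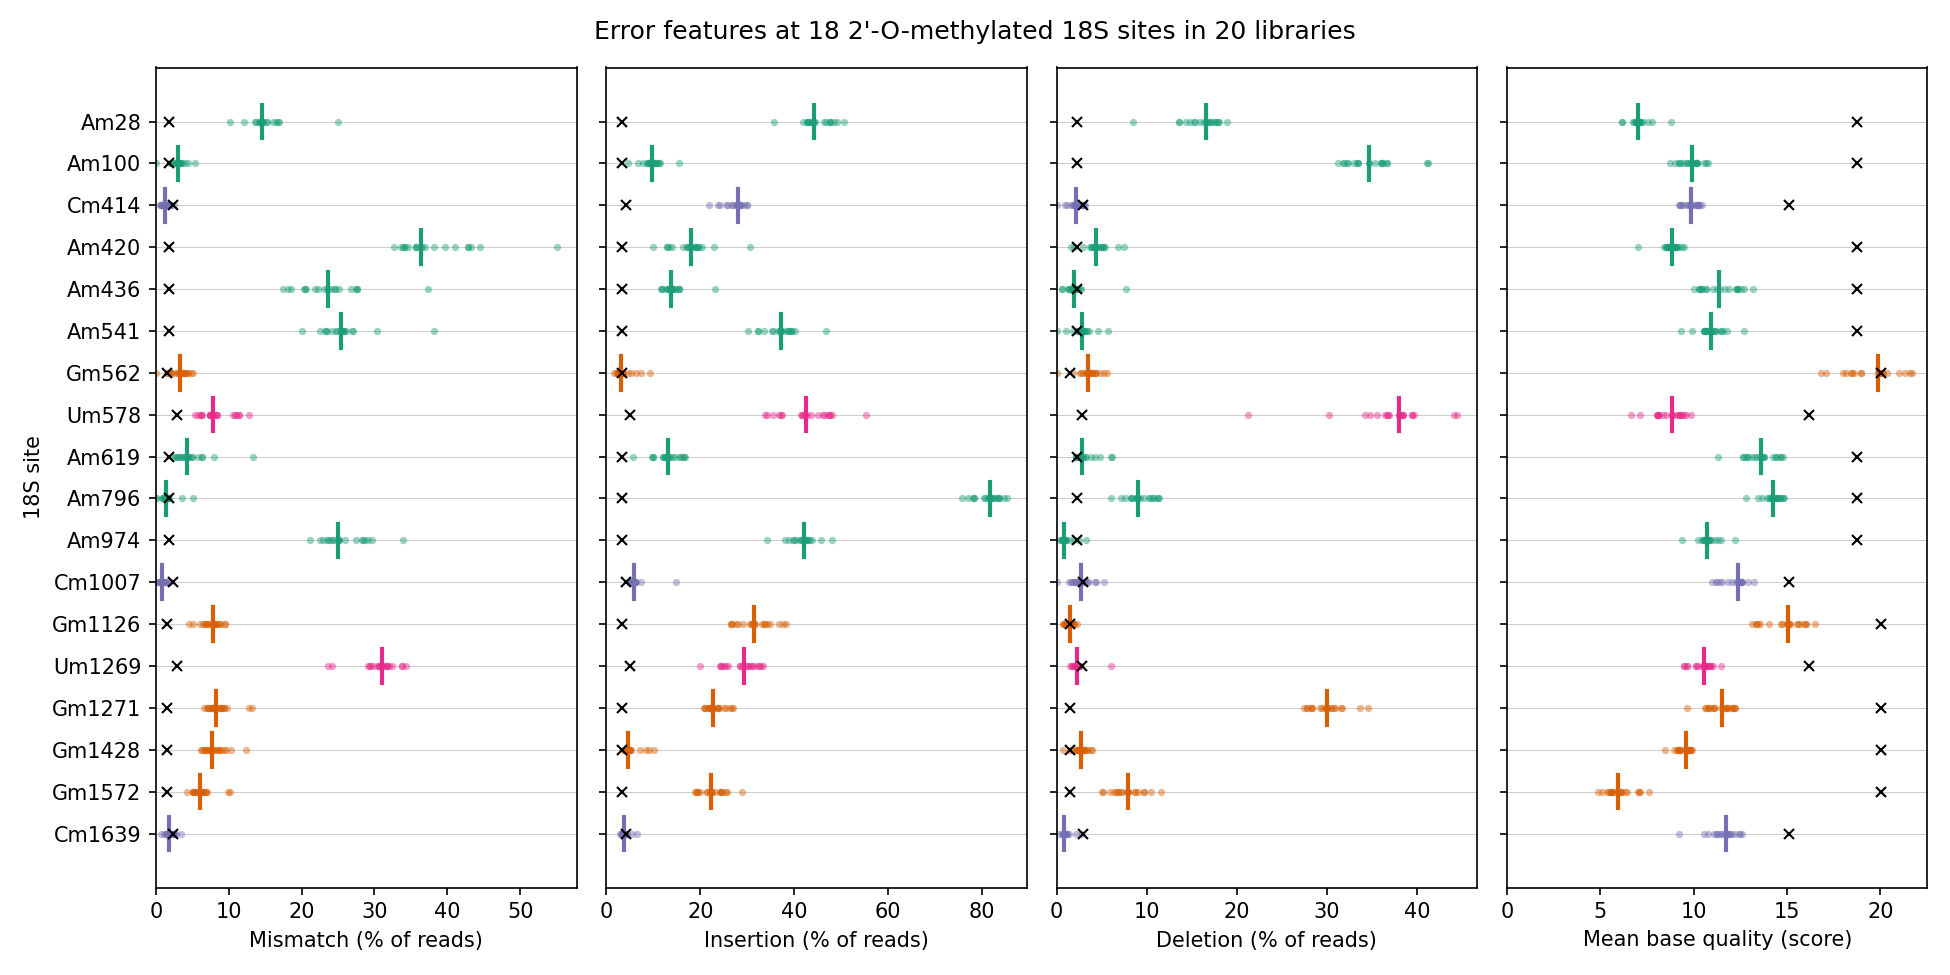
Mismatch, insertion and deletion (percent of reads) and mean base quality (score) at each of the 18 sites. Each dot is 1 of 20 libraries, the upright bar is their median, colours mark the base, and the cross is the median of unmodified 18S positions of the same base. Insertion at Am796 lies between 75.6% and 85.4% in all libraries, whereas Gm562 sits on its cross for insertion and quality.

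Am796 had the highest insertion frequency, with a median of 81.7% over the 20 libraries (75.6% to 85.4%). Its range did not overlap that of any other site. Unmodified A positions had a median of 3.29%. Am28 followed with 44.2% (35.7% to 50.6%), Um578 with 42.5% (33.8% to 55.3%) and Am974 with 42.0% (34.2% to 48.0%), and the ranges of these 3 sites overlapped. Am541 had 37.2% (30.2% to 46.7%), Gm1126 31.4%, Um1269 29.4%, Cm414 28.0%, Gm1271 22.7% and Gm1572 22.3%. Am796, Am28, Um578, Am974, Am541, Gm1126 and Cm414 had medians at the 100th percentile of unmodified positions of their base. The remaining A sites were lower, with 17.9% at Am420, 13.8% at Am436, 13.1% at Am619 and 9.67% at Am100. The lowest insertion frequencies were those of Gm562 (3.10%, 1.72% to 9.26%), Cm1639 (3.77%) and Gm1428 (4.68%). At Am796 the inserted reads were accompanied by few mismatches, with a median of 1.36% against 1.81% at unmodified A positions, and by 9.02% deletions.

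Mismatch was highest at Am420, with a median of 36.4% (32.7% to 55.0%), against 1.81% at unmodified A positions. Um1269 had 31.0% (23.6% to 34.3%), Am541 25.4%, Am974 25.0%, Am436 23.6% and Am28 14.5%. These are the 6 sites past the 95th percentile, 5 of them adenosines. The other sites had medians of 8.21% or less. Mismatch was lowest at Cm1007 (0.812%), Cm414 (1.17%) and Am796 (1.36%), all below the medians of unmodified positions of their base. All 3 Cm sites had mismatch medians under the 2.29% of unmodified C positions.

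Deletion was raised at few sites. Um578 had a median of 38.0% (21.3% to 44.4%), Am100 34.6% (31.2% to 41.3%) and Gm1271 30.0% (27.5% to 34.5%). The ranges of Am100 and Gm1271 overlapped with that of Um578. Am28 came next with 16.6% and fell short of the 95th percentile for A. The lowest medians were 0.830% at Am974, 0.836% at Cm1639 and 1.42% at Gm1126, against 2.21%, 2.93% and 1.52% at unmodified A, C and G positions. At Um578, insertion exceeded the other errors in 14 of 20 libraries.

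Mean base quality at the sites was below the median of unmodified positions of the same base, except at Gm562 in 3 libraries. It was lowest at Gm1572 (5.97, against 20.0 at unmodified G positions), Am28 (7.02) and Am420 (8.82, against 18.8 at unmodified A positions), and Um578 also had 8.82. Am28, Am420, Um578, Gm1271, Gm1428 and Gm1572 were the 6 sites at or below the 5th percentile. The highest values were 19.9 at Gm562, 15.1 at Gm1126 and 14.3 at Am796. Am796 thus combined the highest insertion frequency of the 18 with the third highest quality. Gm1428 had a low quality of 9.57 without any kind of error past the 95th percentile.

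The commonest error by median was insertion at 11 sites, mismatch at 4 and deletion at 3, and it was the same in every library at 8, 3 and 2 of them. Am420, Am436, Um1269 and Gm1428 were the mismatch sites, and Am100, Gm562 and Gm1271 the deletion sites. Gm562, where deletion led in only 8 of 20 libraries, had 3.23% mismatch, 3.10% insertion and 3.49% deletion. The order of the sites was similar from library to library. Across the 190 pairs of libraries, Spearman's rank correlation over the 18 sites had a median of 0.965 for mismatch (0.872 to 0.998), 0.971 for insertion (0.837 to 1), 0.902 for deletion (0.527 to 0.996) and 0.961 for base quality (0.847 to 1). It is given as a description, since the sites share reads and sequence in all libraries.

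Sites with a common base or guide did not always share a profile. Insertion medians ran from 9.67% to 81.7% among the 8 Am sites, from 3.10% to 31.4% among the 5 Gm sites and from 3.77% to 28.0% among the 3 Cm sites. The 2 Um sites had 42.5% and 29.4%. For snR40, insertion was 22.7% at Gm1271 and 3.10% at Gm562, and deletion was 30.0% and 3.49%. Both bases stand between a G and a U. For snR41, insertion was high at both sites, with 37.2% at Am541 and 31.4% at Gm1126, whereas mismatch was 25.4% and 7.76%. Am541 (ggAac) and Am974 (gaAcg), with different guides, had close values: 37.2% and 42.0% insertion, 25.4% and 25.0% mismatch, and a quality of 10.9 and 10.7.

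A comparison added after the data were seen set each site against unmodified 18S positions with the same neighbours on both sides. There were 10 to 40 such positions per site. Insertion at 12 of 18 sites was above every unmodified copy of the trinucleotide, and at all 18 it was above the copies' median. For mismatch 5 sites exceeded every copy and 16 the median, and for deletion 5 and 15. Base quality was below every copy at 10 sites and below the median at 17. Am796 (UAG) had 81.7% insertion, against 1.98% to 18.4% at 23 unmodified copies. Am420 (GAA) had 36.4% mismatch, against 0.263% to 10.5% at 27 copies, a set it shares with Am541. Gm562 lay within the range of its 26 GGU copies in all 4 readouts, whereas Gm1271, with the same trinucleotide, exceeded all of them in insertion and deletion.

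High error frequencies were not limited to the methylated base. All groups keep the methylation guides, so whether errors at or beside a site come from its methylation was not tested. Over the 7 positions centred on a site, the median insertion over sites was 4.36%, 5.45% and 5.88% at the 3 positions on the 5′ side, 22.5% at the site, and 21.2%, 12.0% and 10.1% at the 3 positions on the 3′ side. The highest insertion fell 1 position 3′ of the site at 9 sites and on the site itself at 3, Am796, Cm414 and Am420. At these 3 the next position was close, with 81.7% and 81.2%, 28.0% and 27.7%, and 17.9% and 17.0%. Gm1126 and the G after it were also close, with 31.4% and 31.6%. The place of the maximum thus rests on small differences at these sites. Am541 had 37.2% insertion and the next A 50.3%, and Am28 had 44.2% and the next U 49.7%. Mismatch and deletion had no such common place. The highest mismatch was on the site at 5 sites, 2 positions 3′ at 5 and 2 positions 5′ at 4. The highest deletion was on the site, 1 position 5′ and 2 positions 3′ at 4 sites each.

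**Figure D2:**
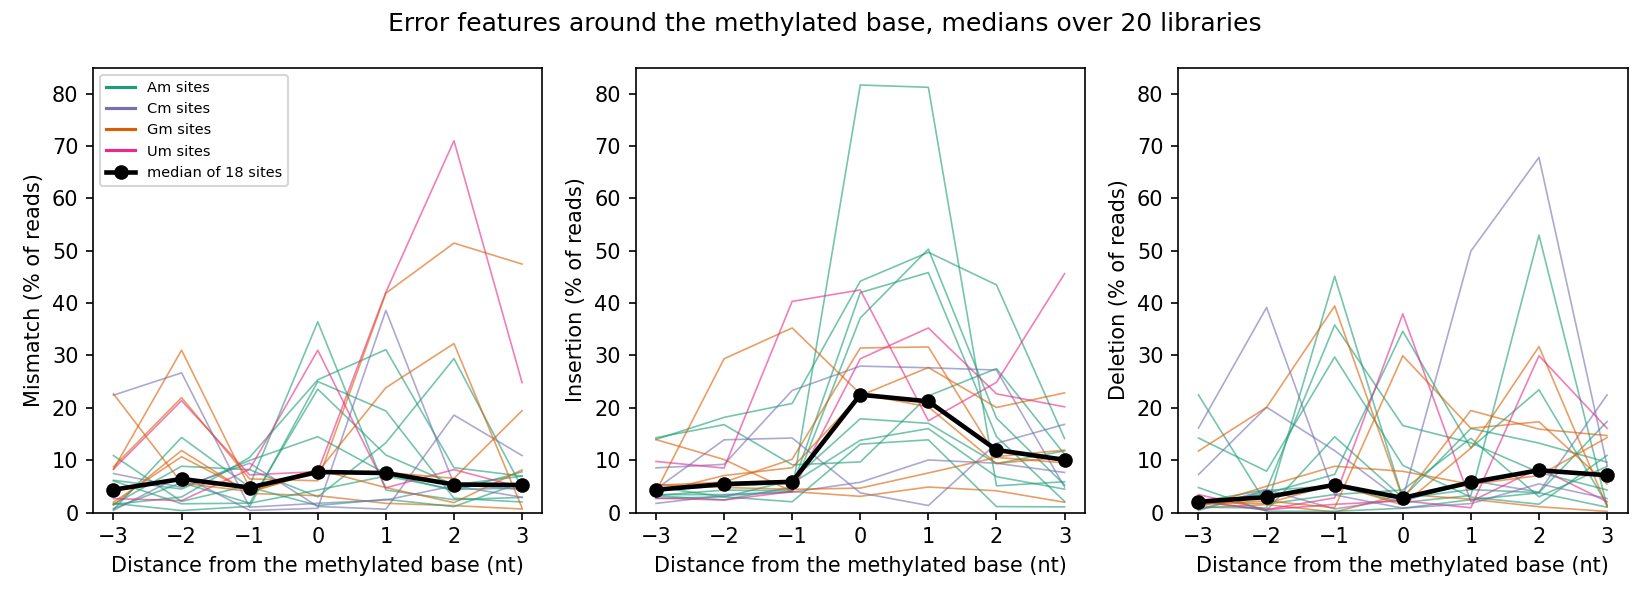
Median mismatch, insertion and deletion (percent of reads) over 20 libraries at distances of -3 to 3 nucleotides from the methylated base, with 5′ positions to the left. Thin lines are the 18 sites, coloured by base, and the black line is their median. The insertion line stands at 22.5% on the site and 21.2% on the next position, and 5.88% on the position before.

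Several sites with low values on the methylated base had high values beside it. At Cm1007 mismatch was 0.812%, whereas the G at position 1008 had 38.6% (31.7% to 45.7%) and the U at position 1009 a deletion frequency of 67.8% (53.3% to 74.5%). Both neighbours lay above the 99th percentile of unmodified positions of their base. Cm1639 had 0.836% deletion, and the C at position 1637 had 39.2% deletion and 26.7% mismatch. Gm1428 had 2.71% deletion, and the A before it 39.5% (31.4% to 41.4%). Values beside Gm562 were lower than these, with no mismatch or deletion median above 11.9% within 3 positions. The U at position 560, with 11.9% mismatch, was still at the 96.6th percentile of unmodified U positions. Insertion reached at most 13.9%, at the C at position 559 (94.3rd percentile).

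High values also stood beside sites that were themselves high. The highest mismatch of any position in these stretches was at the A at position 580, 2 positions 3′ of Um578, with 71.0% (58.3% to 76.3%). The G at position 1574, 2 positions 3′ of Gm1572, had 51.5%. It lies next to the base-methylated m7G1575, so the 2 modifications cannot be told apart there. The A at position 438, 2 positions 3′ of Am436, had 53.0% deletion, and the U before Am619 45.1%. The C at position 1128 near Gm1126 had 32.3% mismatch and 31.7% deletion. Since Um1269 and Gm1271 are 2 positions apart, their stretches overlap and the 35.3% insertion at position 1270 belongs to both. Cm414 and Am420 share position 417, with 22.5% deletion.

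Across gradient fractions F1 to F4, no site changed past the threshold in any readout. Event reads were fitted with a quasi-binomial model and base quality with limma, with p-values adjusted by Benjamini-Hochberg over all 5305 rRNA positions with enough coverage. At an adjusted p under 0.05, 0 of 18 sites were called for mismatch, insertion, deletion and base quality, beside 0% of all positions in each. Before adjustment, 6, 5, 2 and 0 sites had a p under 0.05, against 857, 885, 736 and 9 of all positions. limma on the logit of the frequencies called 0 sites too, and 0 sites had an unadjusted p under 0.05 for mismatch, insertion and deletion by that test. The groups have 2 libraries each, and F1 and 1 library of F4 are shallow.

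Am796 insertion stood at 82.4% and 80.7% in the F1 libraries, 81.3% and 82.5% in those of F2, 81.5% and 81.6% in those of F3, and 80.4% and 84.8% in those of F4. The groups overlapped, and the interval of F1 replicate 2, with 57 reads, ran from 68.7% to 88.9%. At Am28, insertion was 50.6% and 35.7% in F1 and 42.0% to 47.7% in the other fractions, so the F1 libraries enclosed all others. Am420 mismatch stood at 32.7% and 55.0% in the F1 libraries, 33.9% and 37.0% in those of F2, 36.4% and 42.9% in those of F3 and 34.6% and 41.0% in those of F4. Its spread within F1 exceeded the difference of 8.42 points between the highest and lowest fraction means (quasi-binomial adjusted p = 0.286).

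The lowest unadjusted p for insertion belonged to Gm1126. Insertion there stood at 37.7% and 38.2% in the F1 libraries, 29.1% and 33.7% in those of F2, 28.0% and 31.6% in those of F3 and 31.4% and 34.9% in those of F4. Both F1 libraries were above all 6 others, but the difference did not pass (adjusted p = 0.167). Um1269 went the other way, with 23.6% and 24.1% mismatch in F1 and 30.3% to 34.3% in F2, F3 and F4. Its insertion was 20.0% and 25.0% in F1, against 28.5% to 32.8%. F1 lay below all others for both, with 165 and 116 reads, and the adjusted p was 0.547 for mismatch and 0.347 for insertion. At Gm1572, insertion was 19.3% and 20.0% in the F1 libraries, 25.7% and 19.1% in those of F2, 25.6% and 19.4% in those of F3 and 29.0% and 18.9% in those of F4. Replicate 1 was higher than replicate 2 in F2, F3 and F4, whereas both F1 libraries lay near the lower values.

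Leaving out 1 library could bring sites past the threshold, together with many other positions. Without F4 replicate 1, 3 of 18 sites passed for mismatch (Am420, Gm562 and Am619), beside 3.34% of all positions, and 2 for insertion (Gm1126 and Gm1572), beside 3.85%. Without F2 replicate 2, 2 sites passed for mismatch (Gm562 and Am974), beside 7.6% of all positions. In the same fits 5 passed for insertion (Gm1126, Um1269, Gm1572, Am436 and Am796), beside 14.5%, and 1 for deletion (Gm1572), beside 11%. In these fits the remaining library of the fraction is assumed to vary like those of the other fractions.

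**Figure D3:**
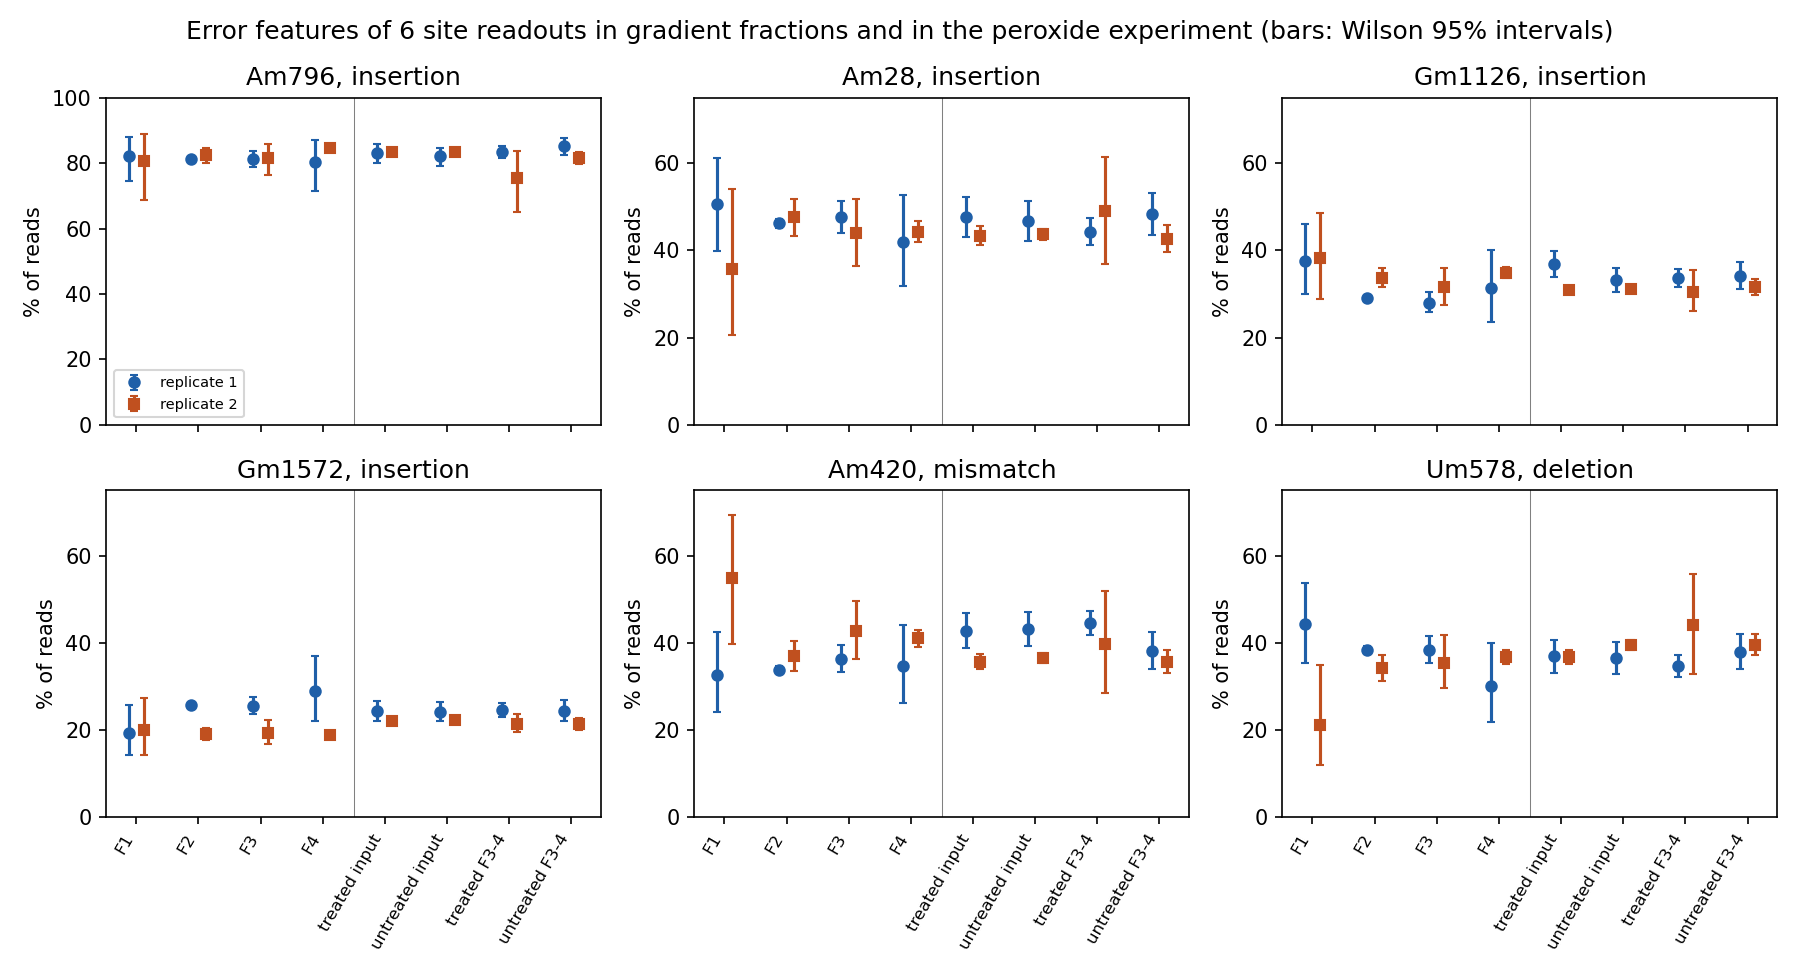
Insertion at Am796, Am28, Gm1126 and Gm1572, mismatch at Am420 and deletion at Um578 (percent of reads) in fractions F1 to F4 and, right of the grey line, in the peroxide experiment, with treated left of untreated. Circles are replicate 1 and squares replicate 2, with Wilson 95% intervals. Am796 lies between 75.6% and 85.4% in all 16 libraries shown, and the wide intervals belong to F1, F4 replicate 1 and treated F3-4 replicate 2.

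Peroxide treatment, which tests whether oxidative stress alters the rRNA modifications, gave no call at the sites either. In input RNA, 0 of 18 sites passed for mismatch, insertion, deletion and base quality between treated and untreated cells, and 0% of 5425 positions passed in each (quasi-binomial fit for the errors, limma for quality). Unadjusted p-values under 0.05 were reached by 0, 1, 1 and 0 sites, and by 172, 155, 120 and 23 positions in all. The median absolute difference over the sites was 0.400 points for mismatch, 0.517 for insertion and 0.309 for deletion, against 0.259, 0.365 and 0.247 over all positions. Am796 insertion was 83.1% and 83.5% in treated input and 82.2% and 83.5% in untreated input. Um578 insertion was 48.0% and 43.6% in treated input and 46.2% and 41.7% in untreated input, with a difference of 1.83 points, the largest insertion difference of the 18 (adjusted p = 0.999). Replicate 1 was higher than replicate 2 in both groups.

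In F3-4 RNA, treated minus untreated again gave 0 of 18 sites in the 4 readouts, beside 0% of 5425 positions in each, with 2, 0, 1 and 0 sites at an unadjusted p under 0.05. The counts over all positions at that level were 156, 163, 153 and 85. Am420 mismatch was 44.5% and 39.7% in treated F3-4, against 38.1% and 35.7% in untreated F3-4. The means were 42.1 ± 3.4% and 36.9 ± 1.7% (SD, n = 2 each), and the quasi-binomial adjusted p was 1. The value of 39.7% is from the shallow treated F3-4 replicate 2. In input the means ran the other way, with 39.2 ± 5.1% in treated and 39.9 ± 4.8% in untreated input (SD, n = 2 each). Am796 insertion was 83.5% and 75.6% in treated F3-4 and 85.4% and 81.7% in untreated F3-4. The value of 75.6% rests on 78 reads of treated F3-4 replicate 2, with an interval of 65.1% to 83.8%. The same library had 38.2% mismatch at Am541, against 23.4% in its replicate and 23.2% and 24.8% in untreated F3-4. Without treated F3-4 replicate 1, which leaves that shallow library alone, base quality passed at 6 of 18 sites, all lower in treated F3-4 (Am420, Am436, Am541, Gm562, Um578 and Cm1639), beside 25% of all 5425 positions.

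The difference between the treatment effects in F3-4 and in input called 0 of 18 sites in each readout, with 0% of 5425 positions. F3-4 minus input called 0 of 18 sites in untreated and in treated cells, also with 0% of 5425 positions in every readout. The largest of these differences in untreated cells were -2.96 points for Am420 mismatch, 1.56 points for Cm414 insertion and 2.78 points for Am100 deletion. In treated cells they were 4.93 points for Am541 mismatch, -5.23 points for Um578 insertion and -3.73 points for Am28 deletion, and treated F3-4 replicate 2 was the extreme library in all 3. Am100 deletion was 41.3% and 32.4% in untreated F3-4 and 34.6% and 33.5% in untreated input, so the groups overlapped. Without treated F3-4 replicate 1, base quality passed at 5 of 18 sites between treated F3-4 and treated input, beside 28.3% of all positions. Input and F3-4 RNA may also have been extracted in different ways, since the labels leave the method for input unclear. That part of the difference cannot be told apart.

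In the strains lacking a Ψ guide, mismatch, insertion and deletion at the methylated sites were all within 1.98 points of WT. Each strain has 1 library with error features, so there is no test. At 10 points or more in either direction, 0 of 18 sites differed in the snR3 knockout, beside 0.146%, 0.0915% and 0.0732% of all positions for mismatch, insertion and deletion. The count was also 0 in the snR34 knockout (0.11%, 0.0183% and 0.0733% of positions) and in the snR36 knockout (0.0549%, 0% and 0.0915%). It stayed at 0 with 5 points in place of 10. The largest difference was in Am420 mismatch, with 35.6% in the snR36 knockout (interval 34.7% to 36.6%, 8815 reads) and 33.7% in WT (32.6% to 34.7%, 7622 reads). Um578 insertion was 37.2%, 36.8% and 37.3% in the snR3, snR34 and snR36 knockouts and 35.4% in WT. Cm1007 deletion was 4.33%, 4.28% and 3.51% in the same order and 5.21% in WT. Am796 insertion was 78.3%, 76.9% and 78.2% in the knockouts and 78.2% in WT.

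Error features differed between experiments, at the methylated sites and at many other rRNA positions. The 4 strain libraries (the snR3, snR34 and snR36 knockouts and WT) were compared with the 4 input libraries of the peroxide experiment, of which 2 are peroxide treated, in a comparison chosen after the data were seen and not tested. For insertion, the strain libraries lay above all input libraries at 4 of 18 sites and below all of them at 6, against 30.5% and 8.49% of 5430 positions. Am796 insertion was 76.9% to 78.3% in the strain libraries and 82.2% to 83.5% in the input libraries. Um578 had 35.4% to 37.3% in the strain libraries and 41.7% to 48.0% in the input libraries, Gm1126 26.6% to 27.6% and 30.9% to 36.8%, and Um1269 24.3% to 25.4% and 28.4% to 32.6%. Insertion ran the other way at Gm1271, with 25.4% to 26.9% in the strain libraries and 20.9% to 23.7% in the input libraries, and at Am541, with 38.7% to 40.2% and 32.4% to 37.1%.

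For mismatch, strain libraries were higher at 8 sites and lower at 3 (34.5% and 5.3% of positions), for deletion at 8 and 2 (34.3% and 4.62%), and for base quality at 0 and 10 (3.43% and 58.5%). Am436 mismatch was 26.8% to 27.6% in the strain libraries and 17.4% to 24.1% in the input libraries. Unmodified positions shifted as well: median insertion at unmodified A positions was 3.36% to 3.53% in the strain libraries and 2.89% to 3.14% in the input libraries. The WT library, of the same strain as the inputs, lay above all 4 input libraries at 5 of 18 sites for insertion and below all at 7. Over all 5430 positions it lay above them at 2139 and below them at 818. Its values of 78.2% at Am796, 35.4% at Um578 and 27.6% at Gm1126 were below every input library. Against the 2 untreated input libraries alone, the 4 strain libraries were above at 6 sites and below at 6 for insertion. The counts over all 5430 positions were 2458 above and 637 below. The input cultures also received cycloheximide, which the labels do not state for the strain cultures, and the labels class the strain RNA as total and the input RNA as ribosomal. These differences between the experiments cannot be told apart.

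Ionic current, available for 2 libraries of each strain, was examined at the 87 5-mers that cover a site. limma on the deposited mean event level called 0 of 87 in the snR3, snR34 and snR36 knockouts against WT, beside 0% of 5158 5-mers in each, and 0, 1 and 0 of the 87 had an unadjusted p under 0.05 (18, 17 and 15 of all 5-mers). Without WT replicate 1, 28, 24 and 31 of the 87 passed, beside 19.6%, 13.6% and 20.5% of all 5-mers. The WT level then rests on WT replicate 2, which stood apart: the 18S 5-mers away from listed sites deviated from their other copies by a median of 2.38 pA in it, against 1.23 to 1.54 pA in the other 7 libraries.

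To see whether the current differed at the sites, each 5-mer covering a site was compared with copies of the same 5-mer. The copies were from the same library and lay in 18S away from listed sites. This comparison was added after the data were seen. The comparison was possible for 60 combinations of site and 5-mer at all 18 sites. Another listed modified site lay inside the 5-mer in 7 of them, which include 3 5-mers counted for both Um1269 and Gm1271. Of the 60, 35 were below and 8 above the mean of the unmodified copies in each of the 8 libraries. Of 989 5-mers away from listed sites, 28% were below and 27.9% above the mean of their other copies in each library. The median absolute deviation at the sites was 2.23 to 2.74 pA in 7 libraries and 4.86 pA in WT replicate 2. At 5-mers away from listed sites it was 1.23 to 2.38 pA, and the 95th percentile of their absolute deviation was 4.82 to 9.24 pA over the libraries. Of the 60, 11 to 18 exceeded that percentile in a library. The number of reads behind each level is not in the columns used, and 29 of the 60 comparisons rest on a single unmodified copy.

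**Figure D4:**
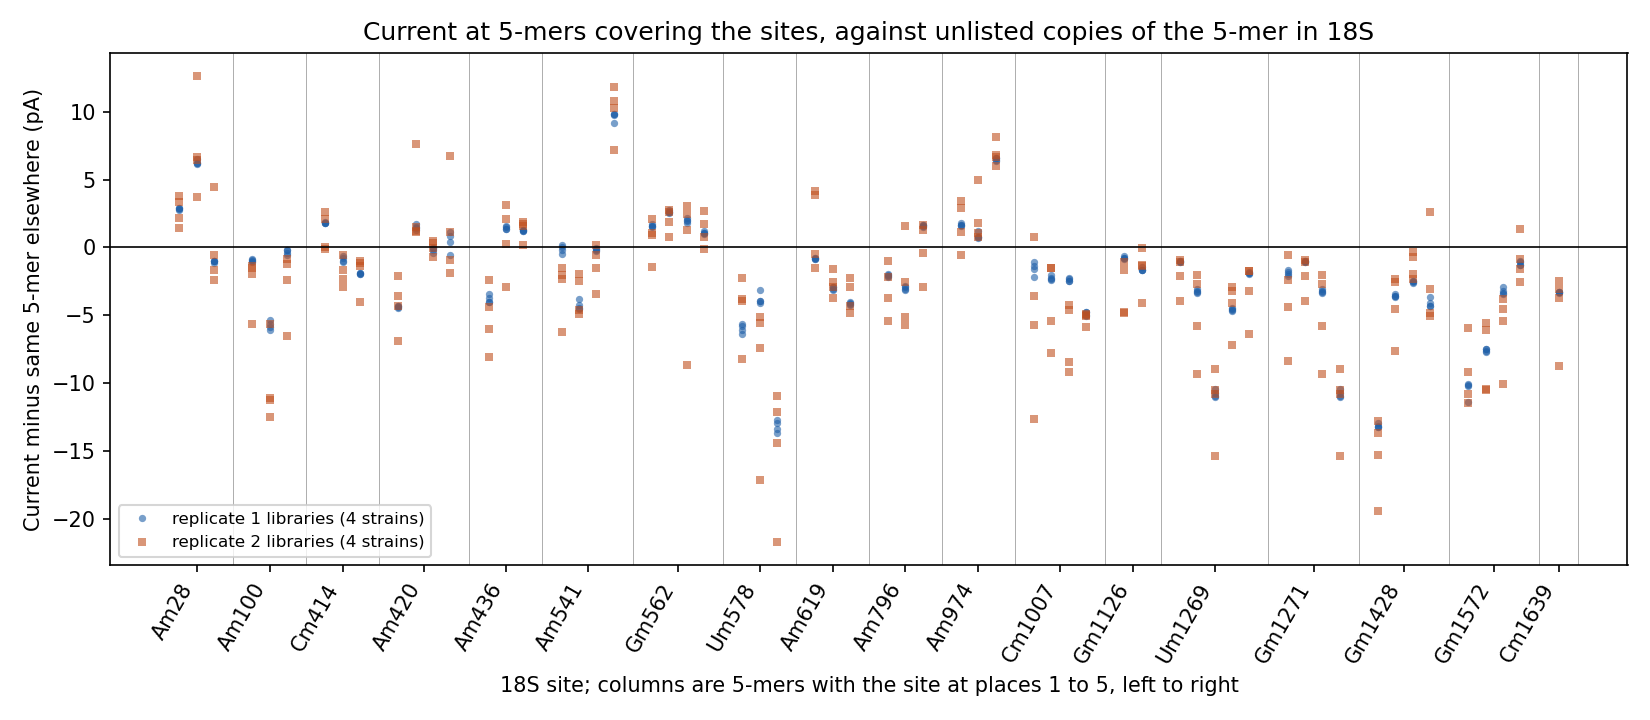
Current level at 5-mers covering each site minus the mean level of the same 5-mer at unlisted 18S positions (pA), 1 point per library. Circles are the replicate 1 libraries and squares the replicate 2 libraries of the 3 knockouts and WT, and the columns of a site run over the places of the site within the 5-mer. The first column of Gm1428 lies between -19.5 and -12.8 pA, and the last column of Am541, which has the same 5-mer as the first of Gm1572, is above 0 where that of Gm1572 is below.

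The largest shifts were downward. The 5-mer that starts with Gm1428 had a median of 104 pA, and its deviation from its 2 unmodified copies had a median of -13.2 pA (-19.5 to -12.8 pA over the libraries). The 5-mer with Um578 in the middle differed by -13.2 pA (-21.7 to -11.0), and the 5-mer that holds both Um1269 and Gm1271 by -10.8 pA (-15.4 to -8.95). Upward shifts were found at Am541, Am974 and Am28, with 9.83, 6.59 and 6.37 pA at their most shifted 5-mers. Each of these rests on 1 unmodified copy, as does the 5-mer that holds both Um1269 and Gm1271. At Am541 the sign differed between 5-mers: with the site in the middle the deviation was -4.35 pA (-4.88 to -1.99), also against 1 copy. The size of that median is below the 95th percentile at 5-mers away from listed sites, 4.82 to 9.24 pA over the libraries. The 5-mer GAGGA occurs at 2 of the sites. It had 117 pA where its last base is Am541 and 97.2 pA where its first base is Gm1572, against 108 pA at its unmodified copy, and these levels did not overlap in the 8 libraries. The copy at Gm1572 also holds m7G1575, so the 2 modifications cannot be told apart there. Whether either modification causes these differences was not tested. Gm1428, with no error frequency past the 95th percentile, was thus among the most shifted of the sites that could be compared, and its range over libraries overlapped that of Um578. At Am796, with 81.7% insertion, the deviations were -2.14, -2.99 and 1.53 pA at the 5-mers in which the site is the first, the second and the last base.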

How the data were processed

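Error features came from 20 libraries and current levels from 8 strain libraries. Per the file headers, coverage was deposited as a read count for each rRNA position, and mismatch, insertion and deletion were deposited as a fraction of the covering reads, printed here as percent. The deposited base quality is a score, and the deposited current level is a signal in pA per 5-mer. Multiplied by coverage, the fractions gave whole reads within 0.001. The file names give EpiNano and Nanopolish as the programs. The labels and headers name no basecaller, aligner or filter, so these are not given here. No build is named, so no chromosome coordinates are printed.

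Groups came from the sample titles. Positions needed at least 20 reads in every library of a fit. Event reads were fitted with a quasi-binomial logistic model whose dispersion was moderated by limma 3.58.1 (squeezeVar along log coverage, floor 1). Base quality and current were fitted with limma (lmFit, eBayes), all in R 4.3.3, with Benjamini-Hochberg adjustment at 0.05. Tests used only the 8 libraries of an experiment. Differences are between plain group means, whereas the quasi-binomial fit weights libraries by reads. The fits were tested on simulated data. Under simulated overdispersion that increased with depth, the quasi-binomial model gave p-values that were too small. limma on logits was run only on data simulated with overdispersion constant in depth, so how it behaves under that setting was not tested. Python 3.11.15, pandas 2.3.3 and scipy 1.17.1 were used for the rest.

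Sites given in full were, per readout, the 3 highest and 3 lowest by median and any site called, and neighbours were named where they held the highest value of the 7 positions centred on a site. The modified sites and the guides were listed by hand from general knowledge. Sites, lists and rules were chosen with earlier results of these data known. Alternatives were a minimum of 50 reads, limma on logits with 0.5 added, the replicate number as a block, each library left out, 18S positions alone, median quality, other distances for unmodified positions and size rules of 5 and 20 points. Same-numbered libraries deviated together, with correlations of 0.14 to 0.58 over positions in fractions and 0.146 to 0.519 in current, and 0.0607 to 0.590 in the peroxide experiment, where only 1 pair of groups, for base quality, fell under 0.1.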

Additional observations from a re-analysis of the deposited data

How the results depend on the processing

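The counts of sites past the threshold were 0 with a minimum of 50 reads, with limma on logits, with 18S positions alone and with median quality, in every contrast these were run on. At 50 reads only 10 of 18 sites entered the fraction fits. With the replicate number as a block, which pairs the same-numbered libraries, 0 sites and 0 covering 5-mers were called, so the block changed no call. Over all positions it called 2 for insertion in each of 3 peroxide contrasts and 1 for deletion in treated minus untreated input, and 1 5-mer for current in the snR3 knockout, against 0 without the block. Leaving out 1 library at a time changed several counts. Called sites among F1 to F4 ranged from 0 to 3 for mismatch, from 0 to 5 for insertion and from 0 to 1 for deletion. For base quality they ranged from 0 to 6 in treated minus untreated F3-4 and from 0 to 5 in F3-4 minus input of treated cells. For current, 0 to 28, 0 to 24 and 0 to 31 covering 5-mers were called in the snR3, snR34 and snR36 knockouts. Fewer libraries enter these fits, and the cause of the changes was not tested. Against unmodified positions at least 3 positions from listed sites, in place of 6, 5 sites in place of 6 were at or below the 5th percentile of base quality, and the other counts past the percentiles were the same at 3, at 10 and with 50 reads. Of the individual site results, 24 passed the threshold under an alternative, in each case with a library left out: 5 among F1 to F4 without F4 replicate 1 and 8 without F2 replicate 2, and, for base quality without treated F3-4 replicate 1, 6 in treated minus untreated F3-4 and 5 in F3-4 minus input of treated cells. Without treated F3-4 replicate 2, the base quality difference turned positive, without passing, at all 6 sites of the first contrast and at 4 of the 5 of the second. With each library left out in turn, treated minus untreated F3-4 ran from -2.27 to 0.404 at Cm1639, from -1.85 to 0.0297 at Am420, from -2.22 to 0.943 at Am436, from -1.78 to 0.396 at Am541, from -3.06 to 0.826 at Gm562 and from -2.22 to 0.270 at Um578. F3-4 minus input of treated cells ran from -2.42 to 0.252 at Cm1639, from -1.66 to 0.215 at Am420, from -1.60 to 0.572 at Am541 and from -3.69 to 0.202 at Gm562. Shallow libraries (F1, F4 replicate 1 and treated F3-4 replicate 2) limit what the fraction and F3-4 comparisons could detect.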
